A study of Mus musculus with 35 samples.

Results

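The 83 genes described here are the ribosomal protein genes of the mouse, chosen by name: every gene whose symbol is Rpl, Rplp or Rps followed by a number and at most a short ending, with at least 10 counts in at least 3 libraries of one data set. They were 83 of 24411 genes counted, with 48 Rpl genes and 3 Rplp genes of the large subunit and 32 Rps genes of the small subunit, and all 83 passed the count limit in spermatocytes and in round spermatids. In isolated chromatoid bodies (CBs) 80 passed, and Rpl36a, Rpl39 and Rpl3l did not. The rule uses the name and the count limit and no difference between groups, though the set was picked with earlier results of these data known. They lie on 19 chromosomes, and 4 of them, Rpl10, Rpl36a, Rpl39 and Rps4x, are on the X chromosome.

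Each ribosome holds 1 copy of most of these proteins, so their mRNAs are made in step in most tissues, and many of them start with a cytosine and a run of pyrimidines, the TOP motif through which growth signals set their translation. Male germ cells are unusual in this respect. The X chromosome is silenced in meiosis, and several ribosomal protein genes have a germ cell or tissue copy elsewhere in the genome, of which the autosomal Rpl10l is known to stand in for Rpl10. SMG6 is the endonuclease of nonsense-mediated RNA decay (NMD), and the CB is a large RNA granule of round spermatids. Several ribosomal protein genes have splice forms that NMD removes.

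The study removed Smg6 from male germ cells with a Cre recombinase driven by the Ngn3 promoter, which is active in spermatogonia. The Smg6-cKO mice were Smg6(fx/fx);Ngn3Cre+ and the controls (CTRL) were Cre-negative littermates carrying Smg6(fx/fx) or Smg6(fx/wt), all adults on a mixed C57Bl/6J and SV129 background. Fractions enriched for pachytene spermatocytes (Spc) and round spermatids (RS) were separated on a BSA gradient from pooled testes, and poly(A) RNA was sequenced from 3 cKO and 3 CTRL samples of each. CBs were pulled down from pooled testes with an antibody to DDX4, and their total RNA was sequenced from 3 cKO and 4 CTRL samples. CB libraries were made without removal of ribosomal RNA and with longer reads, so their levels were not compared with those of Spc and RS. The Spc and RS samples were biological replicates per the study, and for the CB samples the p-values measure the spread between these samples alone.

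Spc and RS libraries held 36419197 to 47355837 gene counts each, of which 316547 to 553474 fell on ribosomal protein genes. CB libraries were shallower, with 2705277 to 12103906 gene counts and 4545 to 35524 on ribosomal protein genes, and 36.5% to 52.7% of their gene counts fell on the ribosomal RNA gene Rn45s. The gene-level count of Smg6 did not change with genotype, at log2 fold changes of 0.22, -0.01 and -0.03 in Spc, RS and CB (edgeR quasi-likelihood test, adjusted p = 0.36, 0.97 and 0.91), and a count over the whole gene does not check the deletion of an exon. The cell markers of the fractions moved with genotype. The summed level of 9 late spermatid genes was 22768 to 28220 CPM (counts scaled to a common library total) in CTRL RS and 2210 to 2382 CPM in cKO RS, and all 9 fell. In RS, 11 of 12 macrophage markers, 10 of 10 Sertoli markers tested and 7 of 7 Leydig markers tested rose, with summed levels of 46.3 to 100.3 against 315 to 628 CPM, 52.3 to 68.5 against 148 to 370 CPM and 6.67 to 7.62 against 38.2 to 404 CPM, CTRL first. No gene of these 4 lists was at 0 in all libraries of an Spc or RS group. In bulk RNA, fewer cells of a type and less RNA per cell cannot be told apart, and the part of these cells in the results that follow was not tested.

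Sequences show how far a read can tell an X-linked gene from its autosomal copy. The last 30 coding bases are given for the 2 pairs the results turn on, from GENCODE vM21 on GRCm38, 5′ to 3′ on the coding strand, with the bases that differ within a pair in capitals. Rpl10 lies at chrX:74273038-74273067 (+), Rpl10l at chr12:66283713-66283742 (-), Rpl39 at chrX:37082701-37082730 (-) and Rpl39l at chr16:10174436-10174465 (+), and all 4 windows are the exonic end of the coding sequence with its stop codon. The other X-linked members are Rps4x at chrX:102184941-102189394 (-) and Rpl36a at chrX:134585654-134588062 (+).
Rpl10: ctggacaagtggAgagccctgcattcctga
Rpl10l: ctggacaagtggCgagccctgcattcctga
Rpl39: caCtggagGAgaacGaaGCtgggtctGtaa
Rpl39l: caTtggagACgaacCaaATtgggtctAtaa
Over the 645 coding bases of Rpl10 and Rpl10l, 84.8% were identical, and over the 156 coding bases of Rpl39 and Rpl39l 85.3%. Neither pair shared a stretch of 75 bases, the read length of the Spc and RS libraries. Copies elsewhere were a greater limit: in 82 genes with a coding transcript a median of 46.9% of the 75-base stretches occurred elsewhere in the genome, and in 36 genes more than 50% did. The share was 84.9% for Rpl10, 92.2% for Rpl36a, 84.7% for Rpl10a, 64% for Rps4x and 32.2% for Rpl39, against 14.2% for Rpl10l and 0% for Rpl39l, and how reads that match several genes were assigned is not given in the sources used here, so counts of highly copied genes are uncertain.

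The letters of a TOP start at the annotated start are shown for 3 of the members that hold them, from 15 bases before to 15 bases from the RefSeq start on GRCm38, with the cytosine and the pyrimidines that follow it in capitals, for the 60S proteins Rpl14 at chr9:120571502-120571531 (+), Rpl35 at chr2:39005117-39005146 (-) and Rpl38 at chr11:114668565-114668594 (+).
Rpl14: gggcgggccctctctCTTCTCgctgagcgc
Rpl35: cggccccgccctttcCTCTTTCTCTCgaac
Rpl38: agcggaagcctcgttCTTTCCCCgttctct
A cytosine at the annotated start followed by 4 pyrimidines was found in 13 of 62 members with a promoter in the RefSeq table (21.0%) and in 813 of 27025 genes in all (3.01%). The start is the annotated one, read on the gene's strand, and the letters are a description only. Of the 13 members with the pattern, 11 fell and 1, Rpl14, rose in cKO against CTRL round spermatids, with a median log2 fold change of -0.75 beside -0.60 for all 83 members, of which 65 fell and 8 rose, and 34.3% of all genes fell and 38.4% rose. Scaled by library size alone, 5 of the 13 fell and 4 rose, with a median of -0.13, where 18.5% of all genes fell and 58.5% rose.

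Levels were compared between genes as CPM per kilobase of merged exon. On this scale the median member stood at 67.3 in CTRL Spc, and the range was 0.147 (Rpl3l, the muscle copy of Rpl3) to 446 (Rplp0). The 5 highest were Rplp0 at 446 ± 45.6 and Rplp1 at 293 ± 13, proteins of the ribosomal stalk, Rpl39l at 270 ± 18.3, Rpl41 at 262 ± 2.67, the smallest ribosomal protein, and Rpl36 at 258 ± 9.43 (SD, n = 3). Rpl39l, Rpl41 and Rpl36 did not differ beyond their spread. Other lengths moved 2 of them, Rplp0 to 544 with either other length and Rpl41 to 439.6 with the longest transcript and 600.2 with the coding transcript. The X-linked genes all stood near the bottom of the same scale, at 7.87 ± 2.10 for Rpl10, 4.35 ± 1.69 for Rps4x, 2.64 ± 0.193 for Rpl36a and 2.41 ± 0.776 for Rpl39 in CTRL Spc. The autosomal copies of Rpl10, Rps4x and Rpl39 stood far above them, at 206 ± 2.21 for Rpl10l, 98.3 ± 4.34 for Rps4l and 270 for Rpl39l. Rps4l is annotated as a transcribed processed pseudogene, so whether it makes protein was not measured.

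Together the 83 genes took 1.20% ± 0.0512 of gene counts in CTRL Spc and 1.10% ± 0.119 in cKO Spc, 0.876% ± 0.0147 in CTRL RS and 0.851% ± 0.0620 in cKO RS (SD, n = 3). In CB the shares were 0.229% ± 0.0462 (n = 4) and 0.196% ± 0.0473 (n = 3), on a total that ribosomal RNA dominates. The genotypes overlapped in all 3 sample types. The make-up of the share was not alike. The 4 X-linked genes took 0.259% of the ribosomal protein counts in CTRL Spc and 0.552% in cKO Spc, 0.109% in CTRL RS and 0.988% in cKO RS, and 0.278% and 0.615% in CTRL and cKO CB. In Spc, RS and CB alike, each cKO library was above every CTRL library.

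**Figure D1:**
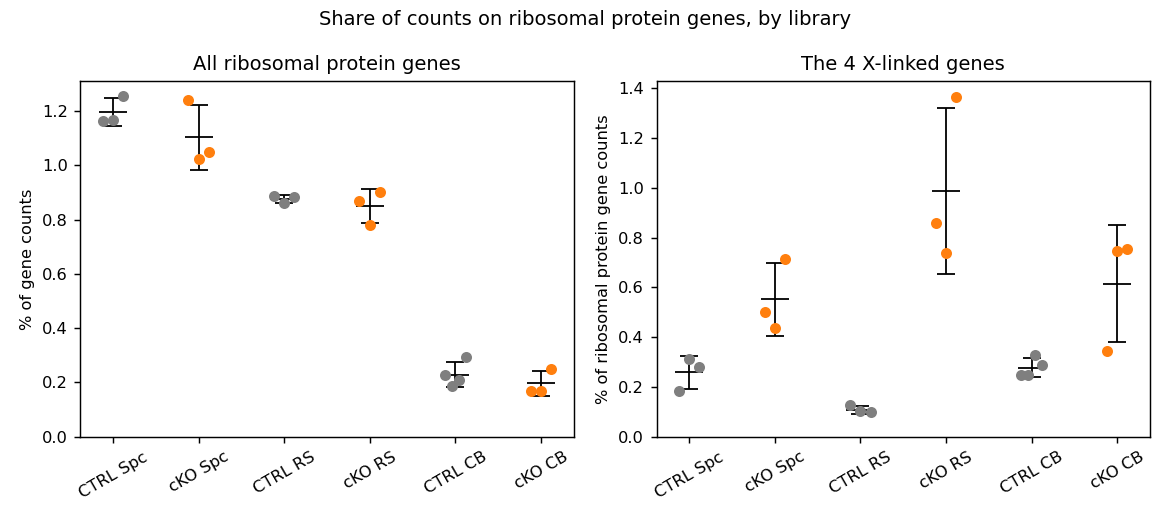
Percent of gene counts on the 83 ribosomal protein genes (left) and percent of those counts on the 4 X-linked members (right), for each library (points), with the mean and SD of its group (n = 3, and 4 for CTRL CB). The total share overlaps between genotypes in Spc, RS and CB, while every cKO library is above every CTRL library in the X-linked share.

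The first comparison asks what loss of SMG6 does to these genes in spermatocytes, before meiosis ends. Few ribosomal protein genes changed: 4 rose and 3 fell of 83 (adjusted p at most 0.05), while 14% of all genes tested rose and 14.1% fell. The median log2 fold change was -0.15, against -0.01 over all 17321 genes. With single libraries left out it ran from -0.24 (without cKO Spc 1) to -0.08 (without cKO Spc 3), below that of all genes each time. The 4 that rose were 3 of the X-linked genes and Rpl10a.

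Rps4x, a small subunit protein, had normalized counts of 177, 365 and 365 in the CTRL and 739, 454 and 762 in the cKO libraries, where normalized means scaled by TMM factors, which take most genes as unchanged. Each cKO library was above each CTRL library, and the log2 fold change (± SE, as for all that follow) was 1.10 ± 0.33, adjusted p = 0.045. Rpl10, which joins the large subunit late and is needed for the subunits to meet, was at 508, 811 and 756 and 1374, 977 and 1650.5, with no overlap and a rise of 0.95 ± 0.25, adjusted p = 0.030. Rpl36a rose by 0.79 ± 0.18, adjusted p = 0.020, from 188, 199 and 178 to 318, 284 and 374. Rpl39, at 100.1, 159 and 184 against 260.1, 186 and 270.5, was higher in every cKO library but did not pass (0.69 ± 0.28, adjusted p = 0.11). Rpl10a, an autosomal gene and an NMD target through one of its splice forms, rose by 0.57 ± 0.11, adjusted p = 0.012, from 3139.5, 3526 and 3646 to 5752, 4678 and 4843.

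Of the 3 that fell, Rpl10l had 9659.6, 8840.0 and 8798 in CTRL and 7223, 4582 and 5736 in cKO (-0.64 ± 0.16, adjusted p = 0.026), all cKO libraries below all CTRL libraries. Rpl17, of the large subunit, was at -0.42 (adjusted p = 0.031). The cKO libraries were above every CTRL library in 5 genes and below in 12, against 24.3% and 23.4% of all genes. No member passed a log2 size of 1.5, which 3.41% of all genes passed upwards and 5.1% downwards. The counts depended on single libraries. Without cKO Spc 1, 1 member rose and 15 fell of 82, where 7.53% of all genes rose and 4.40% fell, so the reading of the members' falls against all genes turned. Of the members 1 rose and 0 fell without cKO Spc 3, 4 rose and 1 fell without cKO Spc 2, 2 and 0 without CTRL Spc 1, 3 and 2 without CTRL Spc 2, and 1 and 0 without CTRL Spc 3, where in these fits 6.49% to 12.95% of all genes rose and 5.53% to 12.6% fell. With 1 library left out in turn, Rpl10a always passed, whereas Rps4x passed only without cKO Spc 2. Rpl10 lost its call without cKO Spc 1, cKO Spc 3, CTRL Spc 1 or CTRL Spc 3, Rpl36a without cKO Spc 1, cKO Spc 3 or CTRL Spc 3, and Rpl10l without cKO Spc 3, CTRL Spc 1 or CTRL Spc 3 (adjusted p of 0.052 to 0.091 in these fits). Rpl17 did not pass without cKO Spc 2, cKO Spc 3, CTRL Spc 1 or CTRL Spc 3 (0.067 to 0.12). With the replicate number as a block, Rps4x, Rpl10 and Rpl36a did not pass (adjusted p = 0.074, 0.052 and 0.051). In the same fraction all 9 late spermatid markers fell, with summed levels of 4132 to 8078 CPM in CTRL and 472 to 1505 CPM in cKO. Of 10 round spermatid markers 3 fell, with sums of 1426 to 2137 against 1050.0 to 1299 CPM that did not overlap. In addition 9 of 11 Sertoli markers fell, 10 of 12 macrophage markers rose and 1 fell, and 3 of 8 Leydig markers rose. Their sums were 397 to 1121 against 209 to 333 CPM, 82.3 to 163 against 105 to 272 CPM and 137 to 484 against 659 to 1417 CPM, CTRL first. The macrophage sums thus overlapped. The part of these cells in the values of Rpl10l and the other genes was not tested.

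In round spermatids most ribosomal protein genes were lower in cKO, relative to the other genes. Of the 83 genes, 65 fell and 8 rose, where 34.3% of all genes fell and 38.4% rose, and the median was -0.60 against 0.11 over all 17492 genes. This direction is relative to the other genes: scaled by library size alone, the median of the members was 0.01 and that of all genes 0.73, with 23 members higher and 24 lower, against 58.5% and 18.5% of all genes, so the difference of -0.71 between the medians was kept and the sign of the members was not. The TMM factors were 0.716 to 0.767 in CTRL RS and 1.13 to 1.18 in cKO RS. The 51 large subunit genes had a median of -0.59, with 40 lower and 6 higher, and the 32 small subunit genes -0.67, with 25 lower and 2 higher. Every cKO library was below every CTRL library in 68 genes and above in 9, against 36.5% and 40.4% of all genes. The 9 include Rpl3l, which passed the count limit in RS through the cKO libraries alone. No member fell past a log2 size of 1.5, a limit that 11.6% of all genes passed downwards, and 4 rose past it, where 14.8% of all genes did.

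**Figure D2:**
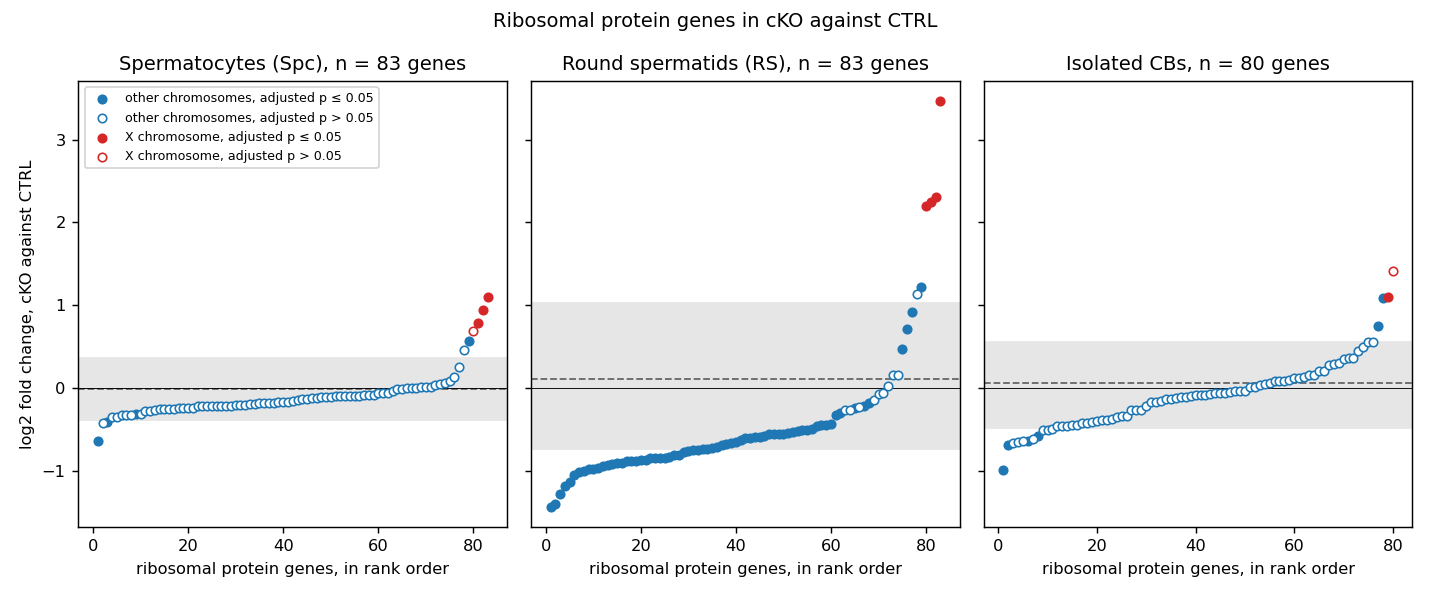
Log2 fold change of cKO against CTRL for each ribosomal protein gene in rank order, in Spc, RS and CB, filled where the adjusted p is at most 0.05 and red for the X chromosome, with the median of all genes (dashed) and their middle 50% (grey). In RS 65 of 83 genes are lower under TMM scaling (24 under library size alone), and the 4 X-linked genes are the highest.

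The 4 genes past 1.5 were the X-linked ones. Rps4x was at 77.9, 58.8 and 93.8 in CTRL and 703, 432 and 1408 in cKO RS, a rise of 3.46 ± 0.44, adjusted p = 2.1e-04. Rpl10 rose by 2.31 ± 0.26, adjusted p = 1.1e-04, from 339.7, 272 and 242 to 1235, 1014 and 1993. Rpl36a went from 114, 66.4 and 88.6 to 395, 404 and 485 (2.25 ± 0.23, adjusted p = 5.4e-05). In each of them the lowest cKO library was above the highest CTRL library, and cKO RS 3 stood above the other cKO libraries. Rpl39, a short protein of the exit tunnel, rose by 2.2 ± 0.36, adjusted p = 8.3e-04, with 73.1, 56.2 and 50.8 against 205, 191 and 434. All 4 kept their direction and their call under library size scaling. Over the whole X chromosome 51.8% of 718 genes rose in RS and 21.4% fell, with a median of 0.78. The macrophage, Sertoli and Leydig markers given above rose in the same libraries, and their part in this rise was not tested.

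The other genes that rose were autosomal. Rpl10a went from 888, 866 and 847 to 2297, 1679 and 2106 (1.23 ± 0.12, adjusted p = 5.7e-05), Rpl14 rose by 0.92 ± 0.11, adjusted p = 1.6e-04 and Rpl7l1, a relative of Rpl7 with a role in ribosome assembly, by 0.71 ± 0.14, adjusted p = 0.0019. Rps3, of the mRNA entry site, rose by 0.47 ± 0.12, adjusted p = 0.0069. Rpl3l was at 9.44, 7.66 and 3.91 against 21.1, 14 and 11.8 and did not pass (adjusted p = 0.053). It reached 10 counts in only 3 of the 6 RS libraries, those of cKO. It thus entered the test through the group where it is higher, and its values are no support for a rise.

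The lowest value was that of Rpl10l, the autosomal copy of Rpl10, though Rpl41 at -1.40 did not differ from it beyond the SE. Rpl10l had 9227, 8831 and 9245 in CTRL and 3669, 2532 and 3922 in cKO, a change of -1.43 ± 0.15, adjusted p = 6.6e-05. The highest cKO library was thus below the lowest CTRL library, in the opposite direction to Rpl10. Rpl39l fell by 0.98 ± 0.08, adjusted p = 1.4e-05, from 11650.5, 11031 and 11611 to 6086, 5203 and 6115, again opposite to its X-linked relative. Both falls passed the test under library size scaling too. Rps4l did not pass, at 4261, 4798 and 4647 against 4071, 3405 and 4199 (-0.23 ± 0.10, adjusted p = 0.057), and under library size scaling it was at 0.39 and passed (adjusted p = 0.0084).

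**Figure D3:**
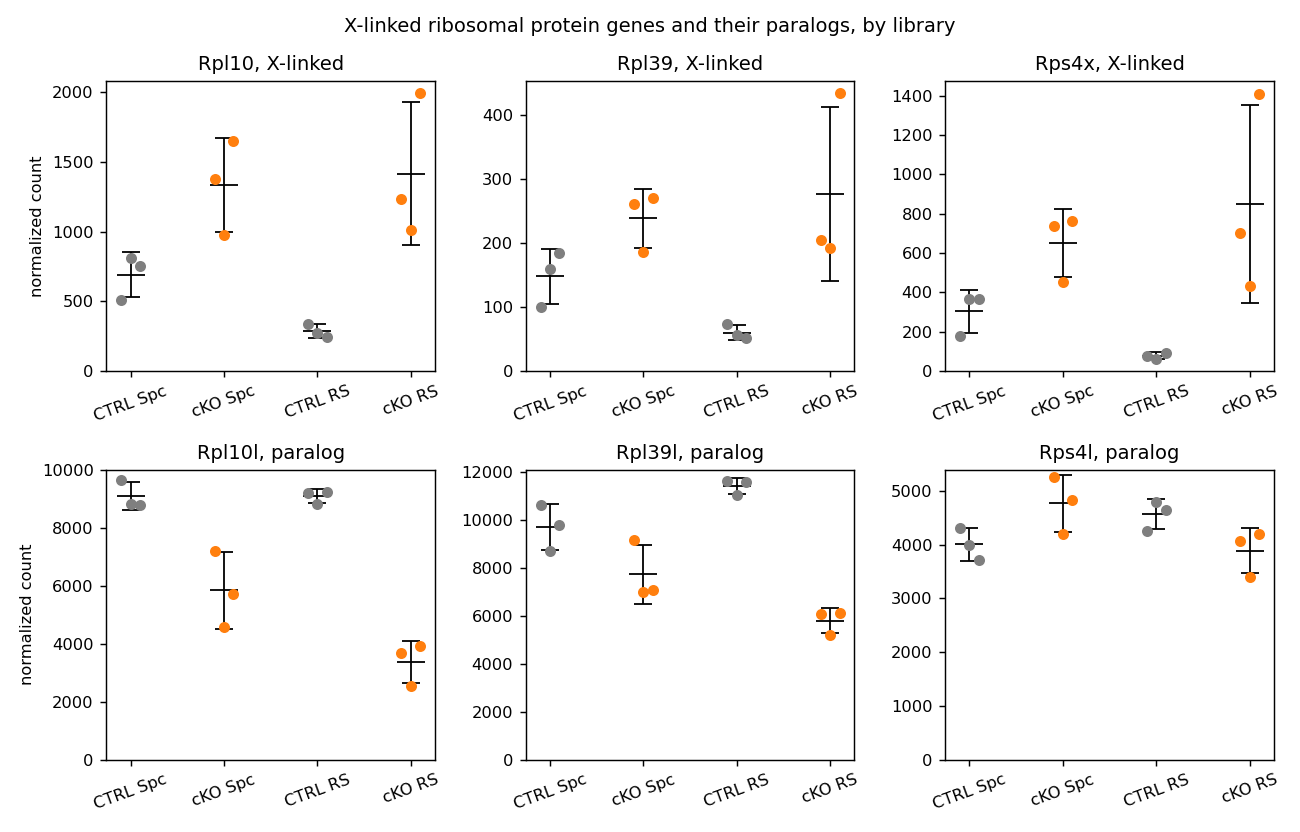
Normalized counts of 3 X-linked ribosomal protein genes (top) and their autosomal copies (bottom) in each Spc and RS library (points), scaled by TMM within a cell type, with the mean and SD of the group (n = 3). Rpl10, Rpl39 and Rps4x are higher in every cKO RS library while Rpl10l and Rpl39l are lower, under TMM and library size scaling alike. Rps4l is lower in RS under TMM scaling and higher under library size scaling, and did not pass under TMM.

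Next among those that fell were Rpl41 (-1.40 ± 0.07, adjusted p = 1.0e-06), Rps20 (-1.28 ± 0.08, adjusted p = 3.7e-06), Rpl35 (-1.18 ± 0.09, adjusted p = 1.1e-05) and Rpl36 (-1.14 ± 0.09, adjusted p = 1.3e-05). Rpl41 was at 18172, 16581 and 18232 in CTRL and 6696, 6379 and 7001 in cKO. These 4 also passed under library size scaling. The stalk proteins fell by less, Rplp0 at -0.72 ± 0.13, adjusted p = 0.0015, Rplp1 at -0.71 ± 0.09, adjusted p = 1.6e-04 and Rplp2 at -0.32 ± 0.09, adjusted p = 0.012, but under library size alone Rplp0 and Rplp1 were -0.10 and -0.09 and did not pass, and Rplp2 passed in the opposite direction, at 0.30 (adjusted p = 0.012). Rplp2 also did not pass without cKO RS 1 or cKO RS 2 (adjusted p = 0.10 and 0.056). The usual copies of the other paralog pairs also differed in size: Rpl7 was -0.90 ± 0.09, adjusted p = 5.4e-05 and Rps27 -0.81 ± 0.10, adjusted p = 1.5e-04, which under library size scaling was at -0.19 and did not pass (adjusted p = 0.085), whereas Rpl3, at -0.06 ± 0.10, adjusted p = 0.64, and Rpl22, at -0.27 ± 0.11, adjusted p = 0.058, did not pass, and under library size scaling they passed in the opposite direction, at 0.56 and 0.35 (adjusted p = 0.0019 and 0.023). Rpl22l1 was -0.50 ± 0.09, adjusted p = 0.0011 and Rps27l -0.53 ± 0.10, adjusted p = 0.0019, and both turned positive, to 0.12 and 0.09, without passing.

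**Figure D4:**
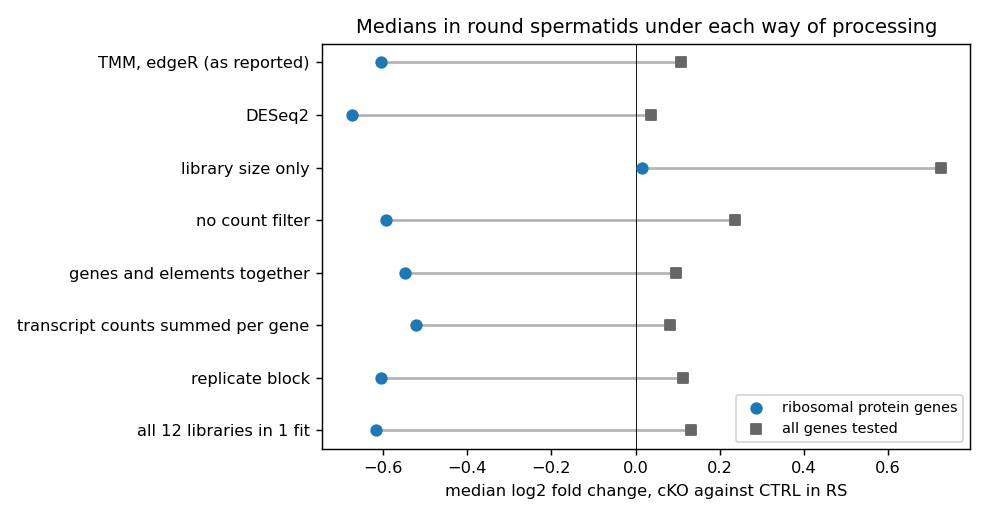
Median log2 fold change of cKO against CTRL in RS for the 83 ribosomal protein genes (circles) and for all genes tested (squares), for each way of processing. The members' median is -0.60 as reported and 0.01 with library size only, while it stays below that of all genes in each.

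In isolated CBs 3 of 80 genes rose and 4 fell, where 18.1% of all 14051 genes rose and 18.4% fell, and the median was -0.08 against 0.07. Without cKO CB a it was 0.05 against 0.01, so the direction turned, and without any other single library it stayed below that of all genes. In those other fits it ran from -0.35 (without cKO CB c) to -0.02 (without CTRL CB d). Rplp2 rose by 1.09 ± 0.28, adjusted p = 0.0091, from 143, 126, 261 and 98.8 to 259, 366 and 360.4, with 1 CTRL library just above the lowest cKO library. Rpl10 rose by 1.10 ± 0.32, adjusted p = 0.017, from 26, 17.9, 23.3 and 22.1 to 28.6, 55.7 and 60.3, with no overlap. Rpl10a rose by 0.75 ± 0.27, adjusted p = 0.041 with overlapping groups. Those that fell were all of the small subunit: Rps15a at -0.99 ± 0.26, adjusted p = 0.0096, Rps27 at -0.69 ± 0.25, adjusted p = 0.044, Rps20 at -0.64 ± 0.23, adjusted p = 0.042 and Rps13 at -0.58 ± 0.20, adjusted p = 0.034. Rps4x, at 4.73, 0.942, 16 and 12 against 0, 8.79 and 50.03, did not pass (adjusted p = 0.21). In 1 gene every cKO library was above and in 4 below every CTRL library, against 19% and 20.8% of all genes. No member passed a size of 1.5, which 5.69% of all genes passed upwards and 5.64% downwards. Rplp2 and Rps15a passed with any 1 library left out, and Rpl10 did not without cKO CB c (adjusted p = 0.11). Rpl10a, Rps13, Rps20 and Rps27 each lost their call without any 1 of 5 libraries (adjusted p of 0.051 to 0.24). Without cKO CB c 1 rose and 7 fell, without cKO CB a 6 and 1, without CTRL CB a 2 and 1, without CTRL CB b 2 and 5, without CTRL CB c 2 and 2, without CTRL CB d 4 and 2, where in these fits 13.5% to 17.6% of all genes rose and 15.2% to 19.9% fell. Without the 2 CTRL libraries whose names have another form, a check added after the data were seen, 1 rose and 1 fell of 79, against 10.02% and 13.01% of all genes. In CB 7 of 7 Leydig markers tested rose and all 9 late spermatid markers fell, and their part was not tested.

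The second axis of the design is the step from spermatocyte to round spermatid. In CTRL, 18 of 82 genes rose and 20 fell, against 36.2% and 39.7% of all 17046 genes, and the median was 0.02 against -0.08. Without CTRL Spc 2 the members' median was -0.049 against -0.046 over all genes, so its sign and its side of all genes turned. It was also negative without CTRL RS 1 or CTRL RS 3, at -0.011 and -0.009, though above that of all genes. Under library size scaling the median was -0.44 against -0.54 over all genes, and 0 members rose and 66 fell, against 25.3% and 53.3% of all genes, so the direction of most members in this comparison depends on the scaling. Other cells differed between these fractions too. All 11 Sertoli markers fell from Spc to RS, from summed levels of 397 to 1121 CPM to 52.3 to 68.5 CPM, and all 8 Leydig markers fell, from 137 to 484 CPM to 6.67 to 7.62 CPM. All 9 late spermatid markers rose, from 4132 to 8078 CPM to 22768 to 28220 CPM, and the part of these cells in the members' values was not tested. Falls past a log2 size of 1.5 were seen in 4 genes, where 17% of all genes fell that far.

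Rpl14, from 2839.5, 3239.8 and 3303 in Spc to 869, 897 and 817 in RS, fell by 1.86 ± 0.09, adjusted p = 3.0e-05, Rpl10a at -1.84, Rps4x at -1.83 and Rps27a, a fusion of ubiquitin and a small subunit protein, at -1.52 on the log2 scale, with Rpl7l1 next at -1.48. The groups did not overlap in any of these. The 4 X-linked genes had a median of -1.14 while the X chromosome as a whole, 671 genes, had a median of 0.72. Rps20 rose by 0.60, Rpl41 by 0.57, Rpl36 by 0.55, Rpl26 by 0.48 and Rpl35 by 0.44, and under library size scaling the first 4 were no longer past the threshold and Rpl35 was -0.02. In 28 genes every RS library was above every Spc library and in 26 below, against 38.5% and 42.1% of all genes. The count that rose was 8 without CTRL Spc 2, 9 without CTRL Spc 3, 11 without CTRL RS 1 and 11 without CTRL RS 3, and it was 22 without CTRL Spc 1 and 21 without CTRL RS 2, while 33.3% to 37.8% of all genes rose in these fits. Rpl26 did not pass without CTRL Spc 2, CTRL Spc 3, CTRL RS 2 or CTRL RS 3.

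In cKO the same step was nearly one-sided. 66 of 83 genes fell and 1 rose, against 26.4% and 18.9% of all 17709 genes, with a median of -0.47 against 0.01. Scaled by library size, 51 fell and 1 rose, against 20.7% and 25.3% of all genes, with a median of -0.33 against 0.16. The lowest were Rps27a at -1.29 ± 0.13, adjusted p = 4.2e-04, Rpl10a at -1.20 ± 0.13, adjusted p = 5.0e-04, Rpl9 at -1.07 ± 0.12, adjusted p = 5.1e-04, Rpl15 at -0.97 ± 0.13, adjusted p = 0.0010 and Rps15 at -0.91 ± 0.13, adjusted p = 0.0012. The gene that rose was Rpl36a, by 0.53 ± 0.18, adjusted p = 0.044. In 71 genes every RS library was below every Spc library and in 1 above, against 32.5% and 26.2% of all genes. No member passed a size of 1.5, which 3.27% of all genes passed upwards and 3.79% downwards. Without cKO Spc 1 the number that fell was 41, against 18.2% of all genes, and without cKO RS 1 it was 39, against 19.4%. In cKO, 7 of 8 Leydig markers fell from Spc to RS, from 659 to 1417 CPM to 38.2 to 404 CPM, and 11 of 12 macrophage markers rose, from 105 to 272 CPM to 315 to 628 CPM. Of 11 Sertoli markers 2 rose. Late spermatid markers rose in 5 of 9, from 472 to 1505 CPM to 2210 to 2382 CPM, and erythroid markers in 5 of 5, from 1.68 to 3.75 CPM to 76.2 to 294 CPM. Peritubular myoid markers rose in 3 of 6, from 18.8 to 21.8 CPM to 59.4 to 178 CPM. The part of these cells was not tested. The call on Rpl36a was lost without cKO Spc 1, cKO Spc 2, cKO RS 2 or cKO RS 3 (adjusted p of 0.072 to 0.12). Both stage comparisons use the same libraries as the genotype comparisons, so the values stand side by side and do not add to each other.

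Whether the step differed between genotypes was tested with an interaction term over all 12 Spc and RS libraries. It was positive in 7 members and negative in 59 of 83, against 19% and 24.1% of all 18171 genes, with a median of -0.63 against -0.13. Past a size of 1.5 stood 1 member upwards, Rps4x, and 0 downwards, against 8.05% and 2.84% of all genes. Under library size scaling it was positive in 19 and negative in 3 members, against 44.5% and 3.00% of all genes, and the median was 0.08 against 0.58, a difference of -0.49. Rps4x (2.24 ± 0.60, adjusted p = 0.012), Rpl39 (1.39 ± 0.49, adjusted p = 0.040), Rpl36a (1.34 ± 0.28, adjusted p = 0.0039) and Rpl10 (1.24 ± 0.40, adjusted p = 0.026) fell between stages in CTRL and not in cKO. Rpl14 (1.02 ± 0.15, adjusted p = 7.8e-04) fell in both, by less in cKO. Of these, Rpl10 did not pass without cKO Spc 2, CTRL Spc 2, CTRL Spc 3, CTRL RS 2 or CTRL RS 3 (adjusted p of 0.054 to 0.064), nor Rpl39 without cKO Spc 1, cKO Spc 2, CTRL Spc 2, CTRL Spc 3, cKO RS 3, CTRL RS 2 or CTRL RS 3 (0.058 to 0.096) or with the replicate block (0.052). At the other end stood Rpl41 (-1.33 ± 0.16, adjusted p = 2.8e-04), Rps20 (-1.20 ± 0.15, adjusted p = 3.8e-04), Rpl36 (-1.08 ± 0.14, adjusted p = 4.8e-04), Rpl35 (-0.98 ± 0.20, adjusted p = 0.0028) and Rpl29 (-0.97 ± 0.26, adjusted p = 0.012), of which the first 4 rose between stages in CTRL and fell in cKO under TMM scaling, and Rpl29 fell in cKO. With library size scaling Rpl35 and Rpl29 were at -0.27 and -0.26 and did not pass (adjusted p = 0.19 and 0.40).

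**Figure D5:**
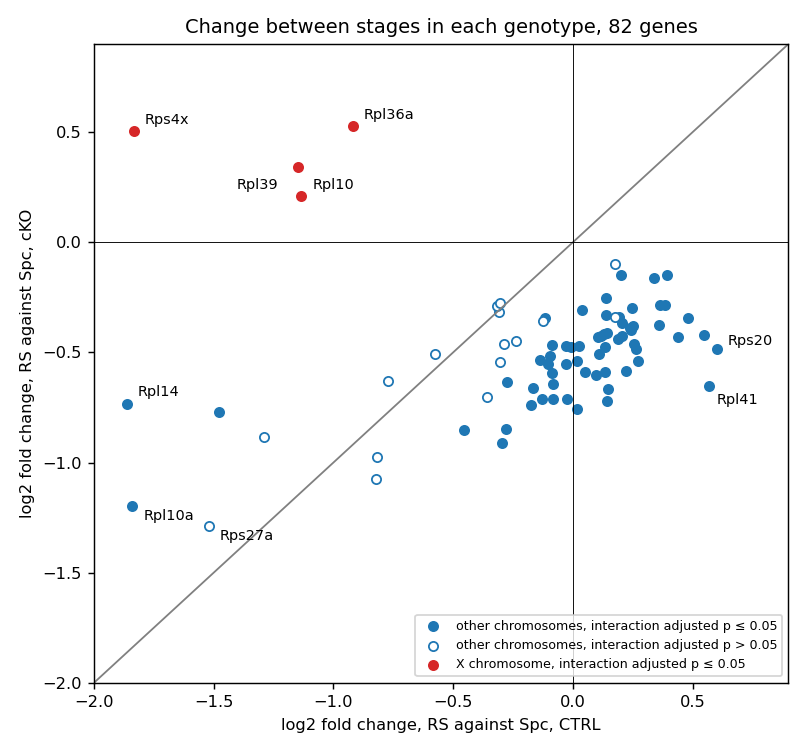
Log2 fold change of RS against Spc in CTRL (horizontal) and in cKO (vertical) for 82 ribosomal protein genes, filled where the interaction has an adjusted p of at most 0.05 and red for the X chromosome, with equal values on the diagonal. The 4 X-linked genes lie above the diagonal and most others below it under TMM scaling. Under library size scaling 19 interactions were positive and 3 negative, against 44.5% and 3.00% of all genes.

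Related genes were read from lists under TMM scaling. They are to be set in RS beside the 38.4% of all genes that rose and the 34.3% that fell. Their directions are relative to the other genes, since the RS median of all genes was 0.11 under TMM and 0.73 under library size alone. In RS, 5 of 6 cytosolic ribosome genes outside the name pattern fell, among them Fau at -0.91, and Gnb2l1, the scaffold protein RACK1, rose by 0.84. Of 20 translation factors of the TOP mRNA class 15 fell and 1 rose, with a median of -0.60, led by the elongation factors Eef1d at -2.63 and Eef1g at -2.33, while the X-linked Eif2s3x rose by 1.79. Mitochondrial ribosomal protein genes were mixed, with 35 of 77 lower, 17 higher and a median of -0.24. Of 28 ribosome assembly factors 18 rose and 3 fell, with a median of 0.42, among them Ncl at 1.21, Dkc1, an X-linked pseudouridine synthase, at 1.68 and the RNA polymerase I subunit Polr1a at 1.01. Of 11 kinases and regulators of TOP translation 5 rose and 3 fell. Rps6kb1, which phosphorylates ribosomal protein S6, was at 1.21, and Larp1, which binds the TOP motif, at -0.50. Of 7 ribosomal protein pseudogenes 3 fell and the others did not pass. The counts of these kinases and pseudogenes are near those shares. In Spc, where 14% of all genes rose and 14.1% fell, 7 of 77 mitochondrial genes rose and 6 fell, 4 of 20 translation factors fell, 2 of 28 assembly factors and 1 of 11 kinases and regulators rose, and no other listed gene passed. In CB, where 18.1% of all genes rose and 18.4% fell, 11 of 27 assembly factors rose and 1 fell, 3 of 10 kinases and regulators rose and 1 fell, 5 of 75 mitochondrial genes rose and 6 fell, 4 of 19 translation factors and 2 of 6 cytosolic ribosome genes fell, and no other listed gene passed.

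Short 3′ untranslated regions (UTRs) were common to the members, with a median of 89 nt in 82 genes against 837 nt in the coding genes tested in RS. In RS, under TMM scaling, the 64 members under 350 nt had a median of -0.64, while the 4257 other coding genes with a 3′UTR that short had -0.16 and the 11010 with a longer one 0.32. Of the 64, 51 fell and 6 rose (79.7% and 9.4%), near the shares of all 83 members, of which 65 fell and 8 rose (78.3% and 9.6%). Small nucleolar RNAs lay inside 29 members, 55 of them in all, and the 29 hosts had a median of -0.51 in RS against -0.73 for the 54 without.

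NMD was looked for in the transcripts annotated as its targets. In Spc, 11 such transcripts of members passed the count limit, of which 2 rose and the others did not pass, where 21.8% of all transcripts of this class rose and 8.14% fell. In RS 2 rose and 8 fell of 11, against 43.7% and 31.3%. Under library size alone 3 rose and 1 fell, against 65.95% and 16% of all transcripts of the class. The number that fell was 3 without cKO RS 1 and 4 without cKO RS 2, against 27.0% and 29.7% of the class. The number that rose was 1 without cKO RS 1, cKO RS 2 or cKO RS 3, against 40.9%, 43.3% and 41.8% of the class. In CB 1 of 3 rose and the others did not pass, against 17.3% higher and 16.2% lower. The transcript of Rpl10a on chromosome 17 (28328584 to 28331032) rose by 0.58 in Spc, 1.30 in RS and 0.91 in CB, and that of Rpl36a on the X chromosome (134585690 to 134588062) by 0.84 in Spc and 2.35 in RS. Rpl27a at -0.73, Rpl6 at -0.52 and Rps27l at -0.46 were the lowest in RS. That of Rpl3, a gene with a splice form that NMD removes, was at 0.06 in RS (adjusted p = 0.70), and that of Rpl12 at -0.35. Each stood within 0.2 of its gene's own log2 fold change, and since a read that fits several transcripts was shared among them, these values do not separate a splice form from its gene. Retained intron transcripts of members numbered 124 in Spc, in 45 genes, of which 17 rose and 1 fell, against 16.8% and 7.76% of all transcripts of that class. In RS 21 rose and 81 fell of 124, against 41.9% and 30.2%, and in CB 6 of 48 rose and the others did not pass, against 17.2% higher and 11.5% lower.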

How the data were processed

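RNA was sequenced from enriched Spc and RS fractions and isolated CBs, in 19 libraries, and the small RNA libraries of the study were not used here. Per the submitters' processing notes, reads were trimmed with cutadapt (2.8), aligned to GRCm38 with STAR (2.7.1a) and counted with featureCounts (2.0.1). The study's methods name other versions of STAR and featureCounts, and TEtranscripts in reverse stranded mode for the gene and element counts. The authors deposited whole-number counts per gene and element, and expected counts per transcript in which a read that fits several transcripts is shared. Expected counts were rounded.

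Genes needed 10 counts and transcripts 20 in at least 3 libraries. Comparisons used the edgeR 4.0.16 quasi-likelihood test (R 4.3.3, limma 3.58.1) with TMM scaling on the libraries of the groups compared, two-sided, and p-values were adjusted by Benjamini and Hochberg's method across the whole table, with a threshold of 0.05. A size of 1.5 (log2) is given beside it. The standard error is the log2 fold change over the square root of F. Levels are CPM of gene counts per kilobase of merged exon. Coordinates, biotypes and lengths are from GENCODE vM21, which held 108214 of 110379 transcripts and 23376 of 24411 genes, and start sequences from RefSeq on GRCm38. Named genes are up to 5 highest and 5 lowest members past the threshold in each comparison, the paralogs and their usual copies, the X-linked genes, Rpl3, Rpl10a and Rpl12, the stalk proteins, the 5 highest levels in CTRL Spc, Smg6, and NMD transcripts, up to 3 in each direction. Rps3 and the genes named from the related lists were chosen after their values were seen. Some genes that this rule names are not reported here. The members and lists were chosen with earlier results of these data known. The labels number the libraries but do not say that CB columns carry those numbers, so CB libraries are lettered a to d in column order. Markers of pachytene spermatocyte, round spermatid, late spermatid, spermatogonia, macrophage, Leydig, Sertoli, peritubular myoid, endothelial and erythroid cells were read as lists. Within a group the members' counts varied beyond sampling noise, with chi-square over its degrees of freedom between 2.87 and 37.8. This is more than a second sequencing of the same library would give. It cannot tell whether libraries were repeat preparations of the same sample. On simulated counts with 200 changed genes, 51% of changes of log2 size 1 and 88% of size 2 were recovered in the RS comparison of 17492 genes, 32% and 73% in Spc (17321), 45% and 82% in CB (14051), 54% and 86% between stages in CTRL (17046), 39% and 81% in cKO (17709), and 25% and 70% for the interaction (18171). Alternatives were DESeq2 1.42.0, library size scaling, no count filter, genes and elements together, transcripts summed per gene, replicate blocks, all 12 libraries in 1 fit, other lengths and totals, and each library left out. Checks and figures used Python 3.11.15, numpy 2.4.6, pandas 2.3.3 and matplotlib 3.10.9.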

Additional observations from a re-analysis of the deposited data

Results flagged for a closer look

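Genotype had a different effect in RS than in Spc by the interaction term (edgeR, adjusted p at most 0.05) in 7 members upwards and 59 downwards, of which the named ones are listed with their values. Upwards these were Rps4x at 2.24, Rpl39 at 1.39, Rpl36a at 1.34, Rpl10 at 1.24, Rpl14 at 1.02, Rpl7l1 at 0.60 and Rpl10a at 0.54. Downwards these were Rpl41 at -1.33, Rps20 at -1.20, Rpl36 at -1.08, Rpl35 at -0.98, Rpl29 at -0.97, Rpl10l at -0.92, Rpl39l at -0.78, Rpl22l1 at -0.76, Rplp0 at -0.75, Rps27 at -0.68, Rplp1 at -0.65, Rpl7 at -0.61, Rps4l at -0.61, Rpl12 at -0.56 and Rplp2 at -0.46. The call on Rpl10a was lost without any 1 of 8 libraries, cKO Spc 2, cKO Spc 3, CTRL Spc 2, CTRL Spc 3, cKO RS 1, CTRL RS 1, CTRL RS 2 or CTRL RS 3 (adjusted p of 0.054 to 0.080), and that on Rpl7 without CTRL Spc 2 or CTRL RS 3 (0.055 and 0.056) and with transcripts summed per gene (0.051). Under library size scaling the calls on Rpl10l (-0.20), Rpl22l1 (-0.047), Rpl29 (-0.26), Rpl35 (-0.27), Rpl39l (-0.065) and Rplp0 (-0.032) were lost, and that on Rplp0 also with transcripts summed (adjusted p = 0.091). With that scaling Rpl7, Rpl12, Rplp1, Rplp2, Rps27 and Rps4l had the opposite sign.

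In 3 of 23 groups of CTRL CB values tested, 1 library lay apart from the other 3, which were close together. Rpl22l1 was at a normalized count of 49.0 against 26.8 to 30.5, and Rpl7l1 at 147.9 against 92.1 to 101, both in CTRL CB b. Rpl10l was at 230.0 in CTRL CB c against 199 to 201, a small gap that rests on the TMM factor of that library (0.831), since as CPM per kilobase the same library was the lowest, at 29.3, and the highest was at 35.1. Chance gives about 1 such group in 20. None of the 3 genes passed the test in CB.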

How the results depend on the processing

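Under library size scaling in place of TMM, 5 members fell in Spc, 23 rose and 24 fell in RS, 0 rose and 66 fell from Spc to RS in CTRL, and the interaction was positive in 19 and negative in 3. Of all genes 13.8% fell in Spc, 58.5% rose and 18.5% fell in RS, and 25.3% rose and 53.3% fell between stages. The interaction was positive in 44.5% and negative in 3.00% of them. NMD transcripts that fell in RS were 1 and that rose in CB 0. Among the named genes the same scaling turned the sign in RS of Rpl12 (0.19), Rpl22 (0.35), Rpl22l1 (0.12), Rpl3 (0.56), Rplp2 (0.30), Rps27l (0.092) and Rps4l (0.39), between stages in CTRL of Rpl10l (-0.31), Rpl22l1 (-0.094), Rpl35 (-0.019), Rpl39l (-0.071), Rplp0 (-0.41), Rplp1 (-0.35), Rplp2 (-0.26), Rps27 (-0.25) and Rps4l (-0.12), and in the interaction of Rpl12 (0.16), Rpl22 (0.60), Rpl3 (0.63), Rpl7 (0.11), Rplp1 (0.070), Rplp2 (0.25), Rps27 (0.035) and Rps4l (0.10). Other members turned too, as the RS median of all 83 went from -0.60 to 0.01. This follows from the scaling, which moved the median of all genes. DESeq2 gave 5 members lower in Spc, 29 higher between stages in CTRL, and 1 NMD transcript higher in Spc. The shares of all genes, and of the NMD class, in these fits were 18.3%, 38.5% and 17.8%. Without a count filter 8 members fell in CB, against 13.4% of all genes, and 0 NMD transcripts rose there, against 7.04% of the class. Transcripts summed per gene gave 11 higher between stages in CTRL, against 36.3% of all genes. With all 12 libraries in 1 fit, 31 members rose between stages in CTRL and 1 fell in Spc, against 38.0% and 14.6% of all genes. Without the 2 CTRL CB libraries of the other name form, 1 rose and 1 fell. Leaving out the 20 gene rows of highest count moved the shares to 1.26% in CTRL Spc, 0.932% in CTRL RS, 0.449% in CTRL CB and 0.433% in cKO CB. Levels per length moved to 544.4 for Rplp0 by either other length, and for Rpl41 to 439.6 by the longest and 600.2 by the coding transcript. The cause was not tested in these cases.

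Leaving out 1 library gave 1 to 4 members higher and 0 to 15 lower in Spc, 8 to 10 and 60 to 66 in RS, 1 to 6 and 1 to 7 in CB, 8 to 22 and 17 to 21 between stages in CTRL, 0 to 1 and 39 to 64 in cKO, and 4 to 8 and 55 to 62 for the interaction. NMD transcripts were 1 to 2 higher and 0 lower in Spc, 1 to 2 and 3 to 8 in RS, and 0 to 1 and 0 in CB. Replicate numbers were not taken as pairs: correlations of same-numbered deviations ran from -0.23 to 0.35 in Spc, -0.18 to 0.10 in RS, -0.30 to -0.13 between stages in CTRL and -0.05 to 0.60 in cKO, and 1, 1, 0 and 2 libraries correlated best with their own number. Between stages in cKO, numbers 2 and 3 were at 0.60 and 0.36, so pairing is not settled there. A block on the number gave 71 members lower and 1 higher in that comparison, against 28.9% and 25.6% of all genes. With the number as a replicate block 1 member rose in Spc, against 10.2% of all genes, and 0 NMD transcripts did, against 14.8% of the class. In the block fit of RS 8 members rose and 64 fell, against 36.0% and 33.1% of all genes. No paired analysis was possible because the numbers in the names of the CB columns do not follow those of the sample labels, for that comparison alone. Of the values of the named genes under all alternatives, 1844 kept direction and side of the threshold, 155 no longer passed, 42 newly passed and 24 turned sign. The other members are not in these counts. Rpl36a, Rpl39 and Rpl3l were under the count limit in CB, and the part of depth in this was not tested.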

Other observations

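The other cell marker lists were read in RS too. Round spermatid markers fell in 10 of 10, spermatogonia markers rose in 6 of 8 and erythroid markers in 4 of 5. Of 10 pachytene spermatocyte markers 4 rose and 3 fell, of 6 peritubular myoid markers 2 rose and 1 fell, and of 5 endothelial markers tested 0 rose and 1 fell.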
